A study of Mus musculus with 3 samples.

Results

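The genes of the ribosomal proteins were examined for 5-hydroxymethylcytosine (5hmC), an oxidised form of 5-methylcytosine made by the TET enzymes, in mouse bone marrow. Members were the protein-coding genes whose symbol is Rpl or Rps followed by a number, with an optional a, l, x or y, together with Rplp0, Rplp1 and Rplp2. The Rps6k kinases, Rps19bp1 and Rpl7l1 were left out. The rule took 80 of 21779 protein-coding genes, 50 of the large ribosomal subunit and 30 of the small. It uses gene names alone and no measured value.

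The series holds 3 bone marrow samples. One is normal marrow and 2 are replicates of NIDF-AML, an acute myeloid leukaemia induced by 4 alleles together: the NPM1 mutant NPMc, IDH2/R140Q, FLT3-ITD and DNMT3A/R882H. The sources used here give neither the promoters that drove these alleles nor the ages of the animals. The peak lists of the 2 leukaemia replicates were analysed, and no list of normal marrow was analysed here. In both, index 4 is the treated library, while the control is index 5 in one and index 6 in the other, and all 223267 lines are the same. They were counted as 1 list of 208468 distinct peaks. The sources used here do not tie index 4 to a sample, so no value below can be assigned to leukaemia or to normal marrow. There is no replicate spread and no test between conditions. A peak is a listed interval with no height, read depth is unknown, and a gene with no peak is one where none was listed. All intervals given after a value are exact 95% intervals (Poisson for counts, Clopper-Pearson for shares) and cover counting error only.

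A ribosome is built from ribosomal RNA and about one copy each of its many proteins. Growing cells make these proteins in matched amounts, and their genes are highly transcribed in dividing cells. Most of the genes are short, have promoters rich in CpG, and start their mRNAs with a run of pyrimidines through which mTOR signalling controls translation. 5hmC is known to lie in the bodies of transcribed genes and to be low at active CpG-rich starts. Loss of 1 copy of several ribosomal protein genes causes Diamond-Blackfan anaemia, a failure of red cell production.

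The clearest difference from other genes of like span lay at the gene starts. Of the 80 members, 56 had a start site that could be placed within 1000 bp of the end of the gene. From 250 bp before to 1000 bp after these starts there was 1 peak in 70.0 kb. The sequence just before 6 of these starts is shown, since its CpG content is one property on which members were compared with other genes below. The 6 are the start with most CpG (Rpl9), a start with peaks close on both sides (Rps10), the member with most flanking peaks (Rplp0), a gene with no peak in its body (Rps6), the start with fewest CpG (Rpl3l) and the one start with a peak inside the window (Rpl32l). Each run is the 150 bases that end at the base before the start, read 5′ to 3′ on the gene's own strand, from RefSeq on GRCm38.p6, and the capitals mark CpG.
Rpl9, chr5:65391432-65391581, minus strand: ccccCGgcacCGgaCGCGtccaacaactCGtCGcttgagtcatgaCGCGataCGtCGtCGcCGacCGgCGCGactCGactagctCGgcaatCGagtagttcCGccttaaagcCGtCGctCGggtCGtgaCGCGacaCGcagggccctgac
Rps10, chr17:27635245-27635394, minus strand: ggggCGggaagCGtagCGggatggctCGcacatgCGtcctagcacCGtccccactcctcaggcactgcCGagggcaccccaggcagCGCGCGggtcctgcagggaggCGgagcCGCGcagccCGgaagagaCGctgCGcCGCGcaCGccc
Rplp0, chr5:115559317-115559466, plus strand: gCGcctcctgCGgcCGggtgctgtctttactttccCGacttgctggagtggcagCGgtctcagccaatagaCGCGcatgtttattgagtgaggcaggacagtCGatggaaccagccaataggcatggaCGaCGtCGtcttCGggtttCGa
Rps6, chr4:86857368-86857517, minus strand: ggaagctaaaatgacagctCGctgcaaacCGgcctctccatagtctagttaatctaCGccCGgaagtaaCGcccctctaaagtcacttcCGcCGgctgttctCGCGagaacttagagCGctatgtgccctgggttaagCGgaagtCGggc
Rpl3l, chr17:24727676-24727825, plus strand: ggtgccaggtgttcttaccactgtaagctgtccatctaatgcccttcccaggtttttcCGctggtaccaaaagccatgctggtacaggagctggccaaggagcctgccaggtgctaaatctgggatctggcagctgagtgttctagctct
Rpl32l, chr10:20208289-20208438, plus strand: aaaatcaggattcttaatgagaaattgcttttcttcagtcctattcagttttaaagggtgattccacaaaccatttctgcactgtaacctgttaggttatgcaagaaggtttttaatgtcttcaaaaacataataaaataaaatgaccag
The runs of Rpl9 and Rps10 hold 26 and 19 CpG, those of Rplp0 and Rps6 hold 13 and 12, and those of Rpl3l and Rpl32l hold 1 and 0.

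The start of Rpl9 had no peak closer than 1927 bp downstream. At Rps10, a protein of the mRNA entry side of the small subunit, the nearest peaks were 478 bp before and 1156 bp after the start. At Rplp0, the base of the stalk that recruits translation factors, they were 595 bp before and 1477 bp after. At Rps6, the small subunit protein phosphorylated by S6 kinases, the nearest peak was 3991 bp after the start. Peaks thus stood on one or both sides of these starts and none stood on them. The single peak in the window belonged to Rpl32l, 159 bp after its start (chr10:20208578-20208618, mm10). Rpl32l spans 0.592 kb and lies wholly inside Map7, so that peak belongs to both genes.

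The expected number of peaks was taken from other protein-coding genes of like span, those within 20% of each member's span, averaged for each member and summed. Genes of like span gave 13.3 peaks in the window where members had 1, a ratio of 0.075 (0.0019 to 0.418). When the genes of like span were further restricted to promoters within 3 CpG of the member's own, they gave 16.2 peaks and a ratio of 0.062 (0.0016 to 0.344), with as few as 12 matched genes for a member. Over all genes with a start site, 14.6% of 15752 had a peak in this window, against 1 of the 56 members. Without Rpl32l and the paralogs Rpl3l, Rpl10l and Rpl39l, the remaining 52 members had 0 peaks where 12.7 were expected (upper limit of the ratio 0.290). Leaving out Rpl32l, which held the only peak, fixed this 0 in advance, so it is no further evidence of a deficit. The edges of the window were chosen after the profile around the starts had been seen. The first 1000 bp after the start, without the upstream part, held 1 peak against 11.6 (0.086, 0.0022 to 0.482). A window of 500 bp on both sides held 7 peaks against 8.25 (0.85, 0.341 to 1.75), because 6 peaks lay from 500 to 250 bp before the starts. From 250 bp before the start to the start itself members had 0 peaks where 1.77 were expected (upper limit of the ratio 2.09), too few to detect a shortage there. The deficit that the counts resolve thus lay in the 1000 bp after the start.

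**Figure D1:**
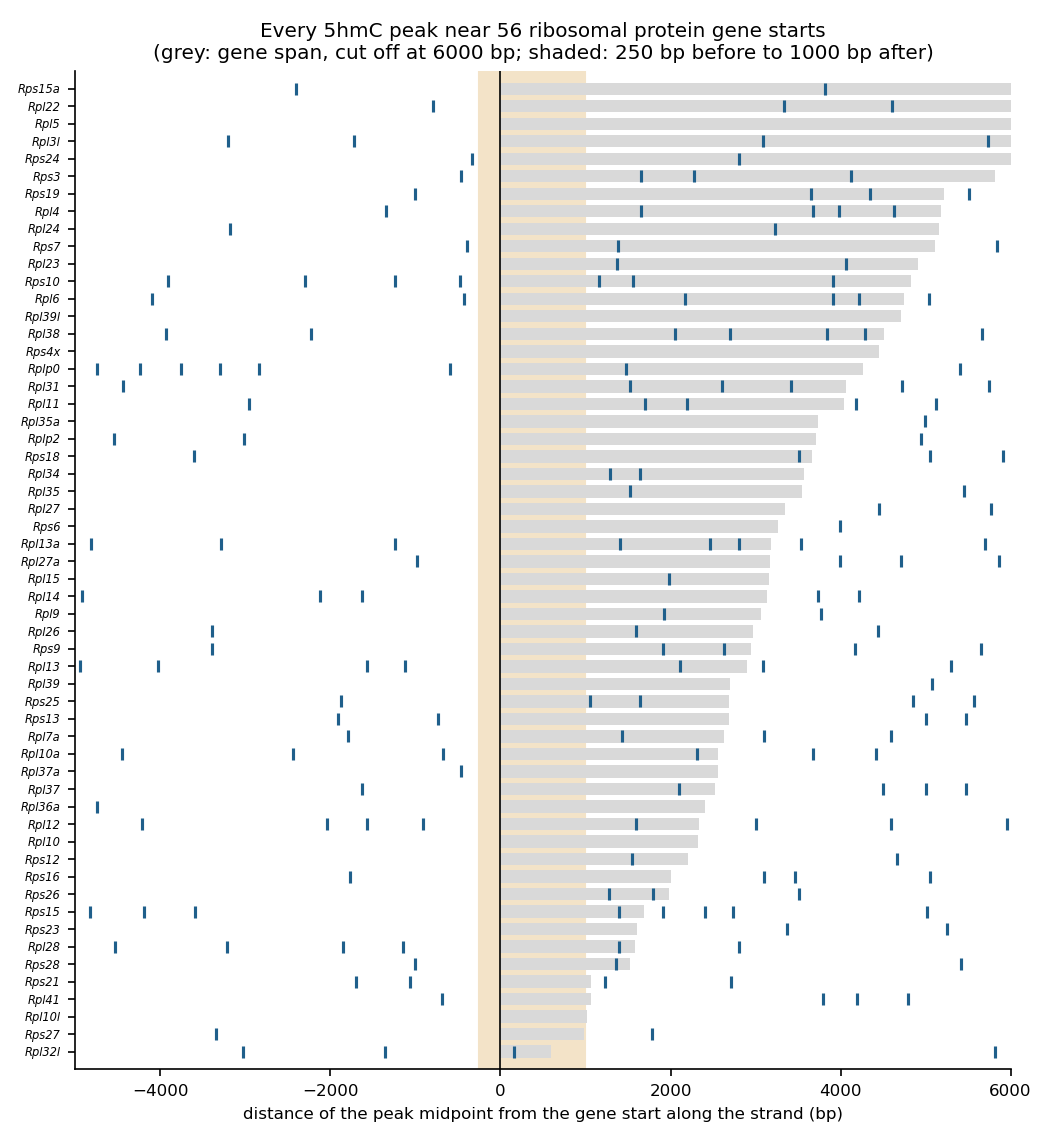
Each row is 1 of the 56 members with a start site, ordered by span, and each blue tick is the midpoint of a 5hmC peak at its distance in bp from the gene start along the strand. Grey bars are gene spans and the shaded band runs from 250 bp before to 1000 bp after the start. The band holds 1 tick, that of Rpl32l.

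Beyond the window peaks were again listed. From 1000 to 2000 bp after the start there were 30 peaks, 0.536 per kb, against 18.0 at genes of like span (1.67 times, 1.12 to 2.38). The stretch from 3000 to 5000 bp after the start held 50 peaks against 26.5 (1.88 times, 1.40 to 2.48), and the stretch between held 17 against 14.9 (1.14 times). Against genes matched on promoter CpG as well, these ratios were 1.10 (0.742 to 1.57), 1.31 (0.973 to 1.73) and 0.794 (0.463 to 1.27), so the excess after the window did not hold beyond counting error. Upstream, 13 peaks lay from 1000 to 250 bp before the start, 20 from 2000 to 1000 bp and 38 from 5000 to 2000 bp. The density upstream was 0.310, 0.357 and 0.226 peaks per kb in that order. The median distance from a member's start to its nearest peak was 1524 bp. For genes of like span, not matched on promoter CpG, the mean of the medians taken for each member was 9820 bp. Of the 56 starts, 14 had a peak within 1000 bp and 50 had one within 5000 bp. The shares of other genes at these distances were not counted.

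**Figure D2:**
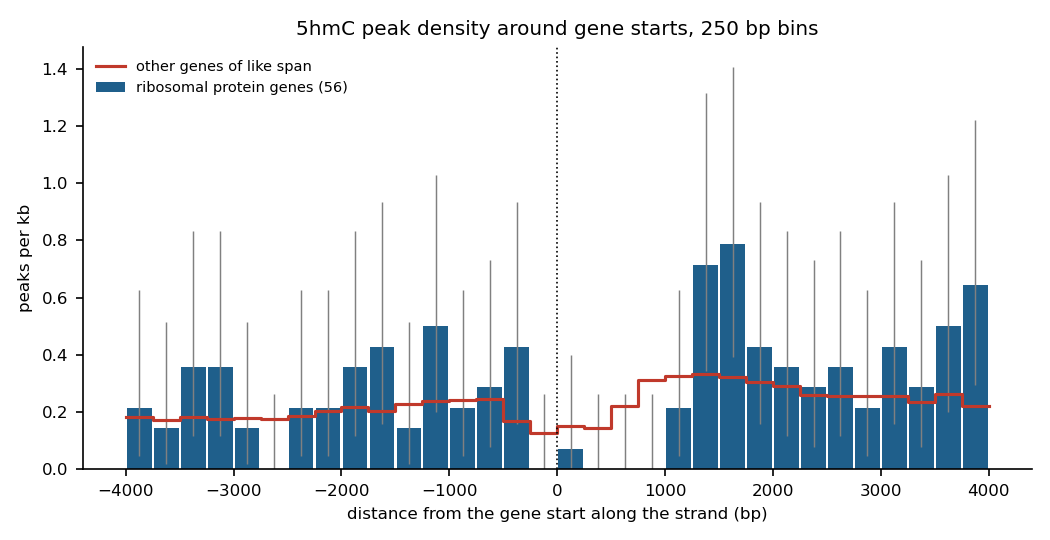
Blue bars are 5hmC peaks per kb in bins of 250 bp around the starts of 56 ribosomal protein genes, with exact Poisson 95% intervals in grey. The red line is the density at other genes of like span. Around the start, from 250 bp before to 1000 bp after, members fall to 0.0143 peaks per kb while genes of like span hold 0.190, and members stand at 0.536 from 1000 to 2000 bp.

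The bodies, which overlap the same stretch, showed this in another form. When each body was cut in 3 equal parts, the part nearest the start held 8 of 64 peaks (12.5%, 5.55 to 23.2%). The middle part held 25 (39.1%) and the part nearest the end of the gene held 31 (48.4%). In other genes of the same range of spans the shares were 30.8%, 33.5% and 35.7%. These are the same genes and peaks as in the start window, and with a median span of 3.17 kb the part nearest the start largely restates it. Outside the genes, the 5 kb after the gene held more peaks than the 5 kb before it: 116 (1.96 times genes of like span, 1.62 to 2.36) against 71 (1.32 times, 1.03 to 1.67). With promoter CpG matched too, the ratios were 1.37 (1.13 to 1.64) after the gene and 0.934 (0.730 to 1.18) before it.

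The other 24 members could not be placed in this profile. For 20 no promoter sequence was matched, and for Rpl18, Rpl19, Rps2 and Rps27l the listed start lies more than 1000 bp inside the gene. The windows at these 4 inner starts held 0 peaks, but 4 windows are too few to show a shortage. The 24 genes carried more peaks per kb of body (0.521, 0.379 to 0.700) than the 56 (0.314, 0.242 to 0.401), so the start profile describes the members with fewer peaks. Rpl18 alone held 8 of the 44 body peaks of the 24.

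The promoter sequences of the 56 members, from 250 bp before to 50 bp after the start, were richer in CpG than those of all genes. The median was 20.5 CpG (range 2 to 35) against 14 over all 15752 promoters, at the same median GC of 56.3%. The observed to expected ratio of CpG was 0.851 against 0.586. On either strand, CCGGAAG, a core of ETS factor sites, was found in 20 of 56 (35.7%) against 12.1% of all promoters. The pyrimidine run CTTTCC was found in 25 (44.6%) against 25.6%, and the longer CTCTTTCC, which contains it, in 8 (14.3%) against 2.98%. AAGATGGC, a core of YY1 sites, was found in 5 (8.93%) against 3.28%. CTTTTC was found in 14 (25.0%) against 21.1% and TATAAA in 6 (10.7%) against 13.7%. Within the family, body density was 0.318 peaks per kb for the 30 members with 20 or more CpG in the promoter and 0.311 for the 26 with fewer, a difference well inside their intervals (0.213 to 0.457 and 0.217 to 0.433).

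Over whole bodies and flanks, ribosomal protein genes carried more peaks than other genes of like span. In the body, the excess passed counting error for the 24 members without a placed start site but not for the other 56. A peak lay in the body of 55 of 80 members (68.8%, 57.4 to 78.7%). Over all protein-coding genes the share was 66.6%, but those are longer, with a median span of 17.3 kb for the other genes against 3.17 kb for members (0.592 to 11.8 kb). Genes of like span had a peak in 47.9%. In all the bodies held 108 peaks (88.6 to 130), where genes of like span gave 82.0, a ratio of 1.32 (1.08 to 1.59). With each repeated line of the list counted, the bodies held 187. Without Rpl18, the member with most peaks, the ratio was 1.24 (1.01 to 1.51). The excess was not even over the members: it was 1.11 (0.855 to 1.42) for the 56 with a start site and 1.81 (1.31 to 2.43) for the other 24. Of the 44 body peaks of the 24, 8 were those of Rpl18, and their ratio without Rpl18 was not computed. For the 56, genes of like span and like promoter CpG gave 74.9 body peaks against 64, a ratio of 0.855 (0.658 to 1.09). Promoter CpG could not be matched for the 24. Within 5 kb of the gene, body included, 75 members had a peak (93.8%, 86.0 to 97.9%), against 73.1% of all protein-coding genes and 61.2% of genes of like span. By number of body peaks, 25 members had 0, 25 had 1, 17 had 2, 9 had 3, 1 had 4, 2 had 5 and 1 had 8. The middle of the width range of body peaks was 49 to 81 bp (quartiles), around a median of 65 bp.

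**Figure D3:**
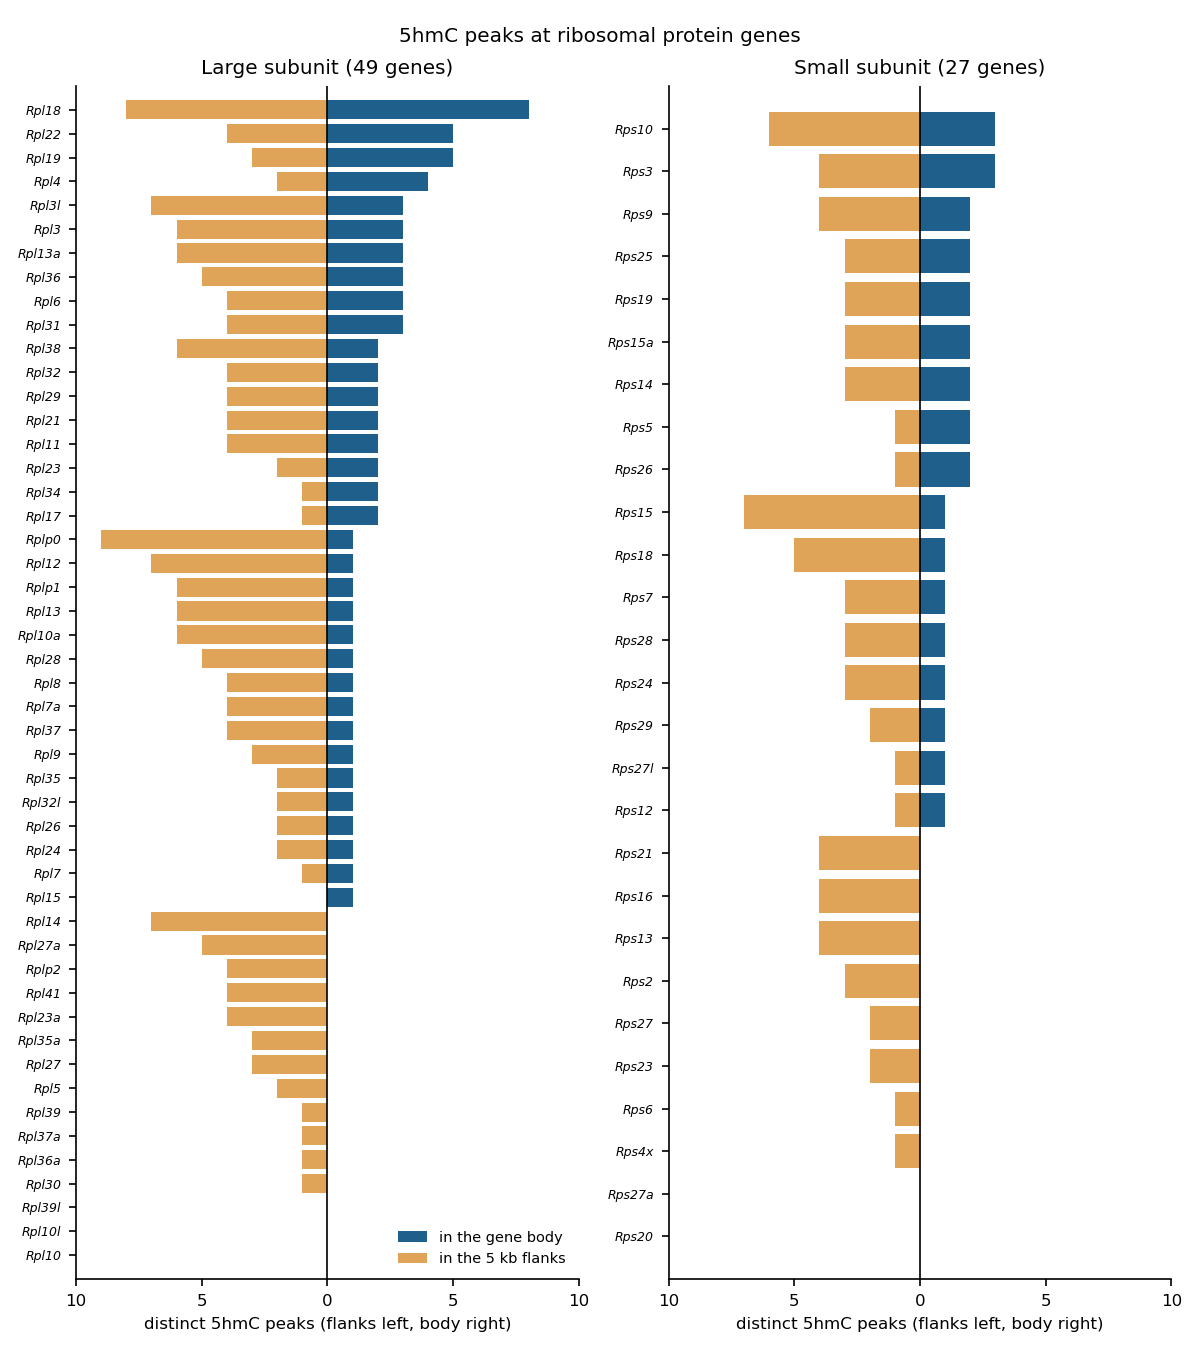
Bars to the right count 5hmC peaks in the body and bars to the left those within 5 kb on either side, for 49 large and 27 small subunit genes. Rpl18 has the longest body bar, with 8 peaks, Rplp0 the longest flank bar, with 9, and 25 genes have no body bar.

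Body density was close to flank density at 5 kb. With overlapping flanks counted once, the flanks held 259 peaks in 787 kb, 0.329 per kb, and the bodies 0.375 per kb, a ratio of 1.14 (0.902 to 1.43). Of the flank peaks, 102 lay in other protein-coding genes (0.365 per kb). With that sequence left out, 157 flank peaks remained and the ratio was 1.21 (0.940 to 1.56). These intervals include a ratio of 1, but those of 2 alternatives do not: the ratio was 1.29 (1.04 to 1.59) with flanks of 10 kb and 1.40 (1.16 to 1.67) with repeated lines counted. The call thus depends on the flank width and on repeated lines. At genes of like span the body to flank ratio was 1.43, from 0.285 per kb in the body and 0.199 in the flanks. Members had 1.68 times the peaks of those genes in the flanks (267 peaks summed over members, 1.48 to 1.89). In the body they had 1.32 times (1.08 to 1.59). These intervals overlap, and that of the members' own body to flank ratio reaches 1.43. A larger excess in the flanks than in the body was thus not resolved. The excess over genes of like span reached far beyond the genes. Member density was 1.52 times that of genes of like span from 5 to 20 kb away, 1.49 times from 20 to 50 kb and 1.42 times (1.35 to 1.48) from 50 to 100 kb. For the 56 members with a start site, matching promoter CpG as well lowered the flank ratio within 5 kb from 1.66 to 1.16 (1.00 to 1.34). It gave 1.11 (1.01 to 1.21) from 5 to 20 kb, 0.995 (0.925 to 1.07) from 20 to 50 kb and 1.03 (0.976 to 1.09) from 50 to 100 kb. These zones hold other genes, and a member's own excess cannot be told apart from that of its surroundings. The 21 members with no other protein-coding gene within 5 kb had 49 flank peaks, 1.15 times genes of like span (0.852 to 1.52), and the 59 with a neighbour had 218, 1.87 times (1.63 to 2.13).

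**Figure D4:**
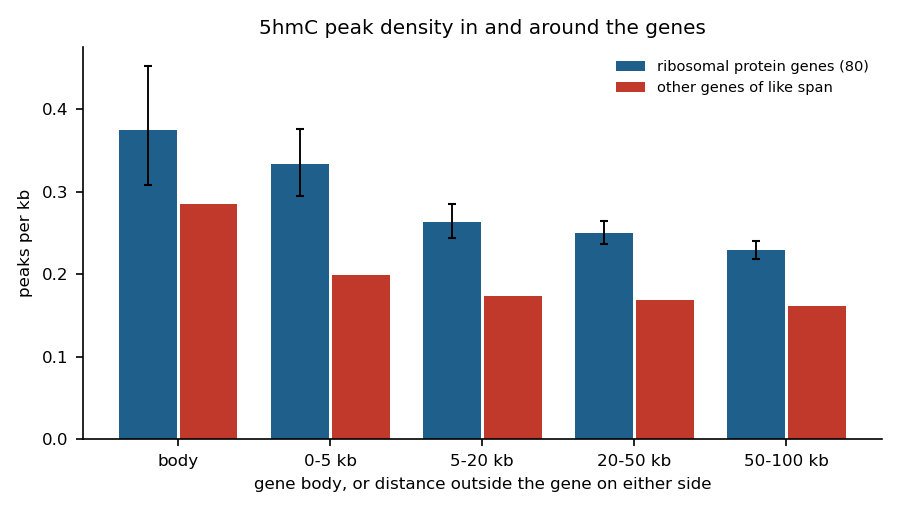
Peaks per kb in the body and in 4 zones of distance outside the gene, for the 80 ribosomal protein genes (blue, with exact Poisson 95% intervals) and for other genes of like span (red). Members are above genes matched on span alone in each zone, from 0.375 against 0.285 in the body to 0.229 against 0.162 at 50 to 100 kb.

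The large and the small subunit did not differ beyond counting error. Of the 50 large subunit genes, 35 (70.0%, 55.4 to 82.1%) had a body peak, against 20 of 30 small subunit genes (66.7%, 47.2 to 82.7%). The large subunit genes held 75 body peaks, 0.406 per kb, and the small subunit genes 33, 0.319 per kb, a ratio of 1.27 (0.834 to 1.98). Against genes of like span the ratios were 1.41 (1.11 to 1.77) for the large and 1.14 (0.785 to 1.60) for the small subunit, and these differed by 1.24 times (0.813 to 1.93). The flanks gave a large to small ratio of 1.18 (0.911 to 1.54) per gene. Intervals this wide leave a difference of almost 2-fold possible.

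Among large subunit genes, Rpl18 stood at the top. It had 8 body peaks (3.45 to 15.8) in 5.37 kb on chromosome 7 (mm10, 45715467 to 45720835), and 99.6% of the genes of like span had fewer. Of these peaks 4 lay in the 2536 bp that its span shares with Sphk2, a sphingosine kinase gene, and 4 lay in the remainder. With repeated lines counted Rpl18 held 22. Rpl22, a protein needed in T cell development, had 5 body peaks in 9.65 kb, and Rpl19 had 5 in 8.49 kb. Rpl4, which lines the peptide exit tunnel, had 4 in 5.18 kb. Members with 3 peaks included Rpl3 (a core protein near the peptidyl transferase centre), Rpl3l, Rpl6, Rpl13a, Rpl31, Rpl36, Rps3 (at the mRNA entry channel) and Rps10. Several of these genes are longer than most members, and for Rpl22 16.0% of genes of like span had more peaks.

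Ordered by peaks per kb, the leading genes ranged in span from 0.592 kb (Rpl32l) to 5.37 kb (Rpl18). Rpl32l had 1.69 per kb from its single peak, Rpl18 1.49 and Rps26 (at the mRNA exit channel) 1.01. Others with high densities were Rpl13a with 0.943, Rplp1 with 0.814, Rpl4 with 0.773 and Rpl29 with 0.746. With 1 to 4 peaks in most of these genes, their order is not resolved. The flanks of Rplp0 held 9 peaks, those of Rpl18 held 8, and 7 each lay at Rpl3l, Rpl12, Rpl14 and Rps15. Chromosome 7 carried 14 members, which held 26 body peaks (1.62 times genes of like span, 1.06 to 2.38), 8 of them in Rpl18. Without Rpl18 the ratio was 1.24 (0.735 to 1.96).

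The members with no body peak were 15 of the large subunit (Rpl5, Rpl10, Rpl10l, Rpl14, Rpl23a, Rpl27, Rpl27a, Rpl30, Rpl35a, Rpl36a, Rpl37a, Rpl39, Rpl39l, Rpl41 and Rplp2) and 10 of the small (Rps2, Rps4x, Rps6, Rps13, Rps16, Rps20, Rps21, Rps23, Rps27 and Rps27a). Of these, Rpl14 still had 7 flank peaks. Only 5 members had no peak within 5 kb: Rpl10, Rpl10l, Rpl39l, Rps20 and Rps27a. Rps27a encodes ubiquitin fused to a ribosomal protein, and Rps20 lies in the head of the small subunit. The nearest peak to the start of Rpl10 was 16608 bp away. For Rpl10l and Rpl39l, copies expressed mainly in testis, it was 129455 and 116895 bp away. Of the other paralogs, Rpl3l, which replaces Rpl3 in striated muscle, had 3 body and 7 flank peaks, and Rps27l, a p53 target, had 1 and 1. Rps4l was not analysed here.

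The 4 X-linked members had no body peak: Rpl10, Rpl36a, Rpl39 and Rps4x. In 11.9 kb genes of like span gave 3.49 peaks, and a count of 0 allows up to 3.69, so a lower density was not detectable at this number of genes. Their flanks held 3 peaks against 8.11 (0.370, 0.076 to 1.08). The 76 autosomal members had 108 peaks against 78.6 (1.38 times, 1.13 to 1.66).

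The 3 P-stalk genes, whose proteins bring elongation factors to the ribosome, had most of their peaks outside the gene. So did the 80 members together, with 267 peaks summed over the flanks and 108 in the bodies. Rplp0 had 1 body and 9 flank peaks, Rplp1 had 1 and 6, and Rplp2 had 0 and 4. Together their flanks held 19 peaks, 3.48 times genes of like span (2.10 to 5.44). All 3 have another protein-coding gene within 5 kb (Pxn and Gcn1 at Rplp0), and those genes share the flanks.

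Rpl5 and Rpl11 join the 5S ribosomal RNA in a particle that also binds MDM2 and so stabilises p53. Rpl5 had 0 body peaks in 8.50 kb and 2 flank peaks. Of the genes of like span, 66.6% had at least 1. Rpl11 had 2 body and 4 flank peaks in 4.04 kb. The 2 partners thus differed by 2 body peaks, and counts of 0 and 2 overlap in their intervals.

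Of the 18 Diamond-Blackfan anaemia genes, 14 (77.8%) had a body peak and all 18 had one within 5 kb. Over all protein-coding genes these shares are 66.6% and 73.1%, and over all members 68.8% and 93.8%. They held 28 body peaks, 1.44 times genes of like span (0.954 to 2.08), and 8 of the 28 were those of Rpl18, without which the ratio was 1.11 (0.679 to 1.72). Rps19, the gene most often mutated in that disease, had 2 body and 3 flank peaks. Rpl31 had 3 and 4, Rps10 3 and 6, Rps26 2 and 1, and Rpl11 2 and 4. Genes with a single body peak included Rpl15, Rpl26, Rpl35, Rps7, Rps24, Rps28 and Rps29. Rpl5, Rpl27, Rpl35a and Rps27 had none. Rps14, the gene whose loss underlies the anaemia of the 5q- syndrome, had 2 body and 3 flank peaks.

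Many ribosomal protein genes carry small nucleolar RNAs, guides of ribosomal RNA modification, in their introns. Of the members 28 held 55 of them. A body peak lay in 17 of the 28 (60.7%) and in 38 of the 52 others (73.1%). Genes of like span had one in 50.9% and 46.4%, in that order, and all protein-coding genes in 66.6%. The density of the hosts was 0.951 times that of the others (0.619 to 1.44).

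Ribosomal protein genes have left many processed pseudogenes. The table named 303 such copies of members, of which 45 (14.9%, 11.0 to 19.4%) held a peak, against 11.8% of all 10510 pseudogenes. Copies inside another protein-coding gene held one in 22 of 72 cases (30.6%, 20.2 to 42.5%), against 18.6% of other pseudogenes so placed. Copies outside such genes held one in 23 of 231 (9.96%), against 10.1%. The copies were shorter, with a median of 526 bp outside such genes against 952 bp. Per kb, the copies outside held 0.134 peaks (0.0870 to 0.198) against 0.0520 (0.0494 to 0.0548). Only copies named after a member were counted, so copies under other names would fall among the other pseudogenes. Rpl31 and Rps12 had the most named copies, 23 each, while members such as Rpl4, Rpl6 and Rps3 had 0. The 23 members with 5 or more copies had 0.365 body peaks per kb and the 57 with fewer had 0.379. Whether reads shared between a gene and its copies moved any peak was not tested.

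Genes near the rule but outside it fell in the same range. Rps3a1 had 2 body and 6 flank peaks, Rpsa 3 and 5, Rpl36al 1 and 4, and Rpl22l1 0 and 0. Fau, which encodes a ubiquitin-like protein fused to a ribosomal protein, had 0 and 7. Of 17 other genes with terminal oligopyrimidine mRNAs, mostly translation factors, 15 (88.2%) had a body peak, against 66.6% of all protein-coding genes and 67.9% of genes of their span, with 70 peaks in all (1.21 times genes of like span, 0.943 to 1.53). Of 27 genes of ribosome assembly and RNA polymerase I, 26 (96.3%) had one, against 72.1% of genes of their span, with 145 peaks (1.36 times, 1.15 to 1.60). For scale, 10 granulocyte and monocyte genes all had body peaks, 4.07 times genes of like span (3.33 to 4.93). So did the 4 erythroid genes counted, of 5 named (1.57 times, 0.752 to 2.88), and 4 B cell genes (2.21 times). Of 3 hepatocyte genes 2 had one (0.287 times, 0.035 to 1.04), and 3 neuronal genes had 0 peaks where 41.4 were expected. All the blood cell genes counted thus carried peaks in this library and the 3 neuronal genes did not. The erythroid excess and the hepatocyte shortage were within counting error. Ribosomal protein genes lay below the granulocyte and monocyte genes in their excess.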

How the data were processed

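5hmC in sonicated marrow DNA was tagged with an azide glucose, coupled to biotin, captured and sequenced on an Illumina HiSeq2000, per the labels' protocols. Peaks were called by the authors with PICS, per the file headers, set to 99 bp reads, 200 bp fragments and at least 10 reads per region. The build is mm10, per the submitters' processing notes. The sources used here name no aligner and no score threshold. The deposited values are the start and end of each peak, with no score, and are rounded to steps of up to 16 bp.

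Each distinct interval was counted once, where its midpoint lay in a RefSeq span (GRCm38.p6, the chromosomes of mm10) or within 5 kb. 108 gene models on scaffolds were left out. Expected counts came from at least 241 other protein-coding genes of like span per member (within 20%), at least 221 around start sites and at least 12 where promoter CpG was matched too (within 3). Start sites came from RefSeq promoter sequences, matched for 60 members, using the start nearest the gene's 5′ end. With 1 list, no test over samples was made, and genes are not replicates. The counting code was tested on simulated data. Members and lists were chosen with earlier results of these data known, and the start window after its profile had been seen. Named genes were all members without peaks, those with most peaks in body, per kb and in flanks, and listed groups; a few of these are counted but not reported by name here. The alternatives were the overlap rule, repeated lines, flank width, member lists, chromosomes and start windows. Python 3.11.15, pandas 2.3.3 and SciPy 1.17.1 were used.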

Additional observations from a re-analysis of the deposited data

How the results depend on the processing

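Of 77 alternative values, 69 stayed close to those reported and 8 moved. The 69 include the values from either replicate list alone, which the identical lists fixed in advance. They also include body to flank ratios of 1.29 with 10 kb flanks and 1.40 with repeated lines, whose intervals exclude 1. The chromosome 7 body ratio without Rpl18, 1.24 (0.735 to 1.96), is among them too, though the interval with Rpl18 (1.06 to 2.38) excluded 1. So is the flank count of 366 with repeated lines, against 259. With repeated lines kept, the bodies held 187 peaks in place of 108, and Rpl18 held 22. The flanks held 116 peaks at a width of 2 kb, 456 at 10 kb, and 157 with other protein-coding genes left out, since they cover less or more sequence. At the starts, the ratio to genes of like span was 0.0 with the paralogs and Rpl32l left out, and 0.85 within 500 bp on both sides of the start. The ratio of 0.0 was fixed by leaving out Rpl32l, which held the only peak in the window. For members with a start site, matching promoter CpG moved the ratio to 0.855 in the body (from 1.11) and to 1.16 in the flanks (from 1.66). The start, CpG and Rpl18 alternatives were chosen after seeing the data. Using the list of either replicate alone gave the same values, because the lists are identical, which says nothing about stability. A stricter peak threshold was not run, since the list has no score. No paired analysis was possible because no group comparison could be made. Unknown read depth limits what a gene without a peak shows.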
